A study of Homo sapiens with 6 samples.

Results

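The genes examined were the long non-coding RNA (lncRNA) genes named as hosts of small RNAs: the SNHG genes, small nucleolar RNA host genes, and the genes whose symbol starts with MIR and ends in HG, microRNA host genes. Members were the autosomal genes annotated as lncRNA whose symbol followed one of these patterns, with the transcripts of each gene summed. The rule itself uses no measured value, though it was chosen with earlier results of these data known. The rule found 105 genes, 28 SNHG genes and 77 microRNA host genes, of 61015 annotated genes with rows on file, 18213 of which were autosomal lncRNA genes. The question was whether the host classes differ between chemoresistant breast cancer stem cells and the other cells of the same line.

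LncRNA sequencing was carried out on the MDA-MB-231 line, derived from a triple-negative human breast tumour and made resistant to paclitaxel (PTX), a drug that stabilises microtubules. The BCSC group (breast cancer stem cells, n = 3 libraries) held cells sorted for aldehyde dehydrogenase (ALDH) activity, and the non-BCSC group (n = 3 libraries) held ALDH-negative cells. Per the study's methods both groups came from the resistant line. Only the BCSC titles say so. The labels do not say that replicates were separate cultures, so p-values measure the spread between these libraries, which may be technical.

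A host gene is transcribed as a long RNA. In snoRNA hosts the snoRNAs lie mostly in introns, are freed after splicing and guide chemical modification of ribosomal and other RNAs, while the spliced exons are often short-lived and degraded by nonsense-mediated decay. Many snoRNA hosts start with a terminal oligopyrimidine (TOP) tract, as ribosomal protein genes do. In microRNA hosts a hairpin is cut from the primary transcript by DROSHA and DGCR8 and then by DICER1, and the mature microRNA finds its targets through its seed, bases 2 to 8. Several such microRNAs, among them the let-7 family, are known for roles in breast cancer cell differentiation. The libraries here report the long transcripts, and mature microRNAs were not measured.

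The microRNAs shown first are those whose hosts carry most counts or were called changed. Sequences are from RefSeq (GRCh38.p14), 5′ to 3′, with the seed in capitals. The let-7 seed GAGGUAG was shared by 6 microRNAs from 5 hosts: MIRLET7BHG, MIRLET7A1HG, MIRLET7IHG, MIR100HG and MIR99AHG. MIR100HG and MIR99AHG also shared ACCCGUA (miR-100 and miR-99a) and CCCUGAG (miR-125b). MIR23AHG holds 3 microRNAs with 3 different seeds.
let-7a-5p (MIRLET7BHG, MIRLET7A1HG and MIR100HG): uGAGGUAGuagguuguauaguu
let-7b-5p (MIRLET7BHG): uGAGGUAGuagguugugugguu
let-7c-5p (MIR99AHG): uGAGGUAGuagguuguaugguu
let-7i-5p (MIRLET7IHG): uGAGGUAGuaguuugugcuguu
miR-100-5p (MIR100HG): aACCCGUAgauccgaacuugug
miR-99a-5p (MIR99AHG): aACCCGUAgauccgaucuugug
miR-125b-5p (MIR100HG and MIR99AHG): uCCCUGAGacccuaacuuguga
miR-23a-3p (MIR23AHG): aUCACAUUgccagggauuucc
miR-27a-3p (MIR23AHG): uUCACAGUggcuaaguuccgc
miR-24-3p (MIR23AHG): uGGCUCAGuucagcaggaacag
miR-22-3p (MIR22HG): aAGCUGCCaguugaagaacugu
miR-205-5p (MIR205HG): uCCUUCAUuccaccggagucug
miR-31-5p (MIR31HG): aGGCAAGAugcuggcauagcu

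The snoRNAs shown next lie in the SNHG genes that were called higher or that carried snoRNA counts. They are the annotated GENCODE transcripts on GRCh37. Capitals mark a C box (TGATGA) near the start and a D box (CTGA) near the end of box C/D snoRNAs, which guide 2′-O-methylation, and the ACA box of the H/ACA snoRNA SNORA73B, all searched as these letters on the RNA strand. SNORD99 holds no TGATGA and SNORD108 no CTGA in the parts searched. SNORD52 and SNORD108 lie in an exon of a transcript of their host, and SNORD48 is partly exonic.
SNORA73B (intron of SNHG3, chr1:28835071-28835274, plus strand): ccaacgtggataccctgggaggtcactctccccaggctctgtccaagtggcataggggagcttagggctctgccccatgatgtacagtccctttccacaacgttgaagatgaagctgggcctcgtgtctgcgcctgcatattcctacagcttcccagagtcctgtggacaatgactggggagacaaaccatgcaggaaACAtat
SNORD99 (intron of SNHG12, chr1:28905261-28905334, minus strand): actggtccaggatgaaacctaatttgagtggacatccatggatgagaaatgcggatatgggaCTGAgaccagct
SNORD48 (SNHG32, chr6:31803040-31803103, plus strand): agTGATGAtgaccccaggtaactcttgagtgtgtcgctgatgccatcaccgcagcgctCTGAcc
SNORD52 (SNHG32, chr6:31804853-31804919, plus strand): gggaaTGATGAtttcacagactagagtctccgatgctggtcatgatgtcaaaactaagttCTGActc
SNORD108 (SNHG14, chr15:25232072-25232142, plus strand): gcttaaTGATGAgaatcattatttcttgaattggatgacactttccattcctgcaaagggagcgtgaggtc

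The starts were searched for pyrimidine runs. A pyrimidine run of 6 bases that begins with C lay within 10 bases of the RefSeq start in 12 of 24 SNHG starts (50%), in 20 of 75 starts of microRNA hosts (26.7%) and in 20.8% of the 35116 starts in the table, read on the gene's strand. A C exactly at the start with 4 pyrimidines after it, the strict form of a TOP tract, was found at 6 of 24 SNHG starts (25%), at 2.67% of microRNA host starts and at 4.07% of all starts. Shown are 20 bases before and 20 from the start, with the run in capitals, for members that were called higher (SNHG12, SNHG32, SNHG7 and SNHG3) and for SNHG4 and SNHG16. SNHG3 holds no such 6-base run within 10 bases of its start, and neither do 11 other SNHG genes, SNHG1, SNHG5 and SNHG17 among them. SNHG5 still has the shorter strict form, a C at its start with 4 pyrimidines after it. Runs farther from the start were not counted. The shares were not tested.
SNHG12 (chr1:28581854-28581893, minus strand): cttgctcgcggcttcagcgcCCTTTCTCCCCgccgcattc
SNHG32 (chr6:31834896-31834935, plus strand): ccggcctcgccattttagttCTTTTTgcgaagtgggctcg
SNHG4 (chr5:139274081-139274120, plus strand): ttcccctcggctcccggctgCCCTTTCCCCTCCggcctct
SNHG16 (chr17:76557744-76557783, plus strand): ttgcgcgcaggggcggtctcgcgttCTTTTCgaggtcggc
SNHG7 (chr9:136728165-136728204, minus strand): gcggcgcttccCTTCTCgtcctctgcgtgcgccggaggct
SNHG3 (chr1:28505923-28505962, plus strand): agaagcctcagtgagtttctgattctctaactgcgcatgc
These windows are on GRCh38.p14. All other positions given are on GRCh37.

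The libraries held 9898487 to 21214639 counts assigned to genes or named transcripts, more in each BCSC library than in any non-BCSC library. A gene at 0 could still hold up to 3 counts there, or 0.146 to 0.285 CPM (each library scaled to 1e06 counts by its TMM library size), which covers counting error only because the reads carry no molecular identifiers. VIM, CD44, AXL, CAV1 and S100A4 were fixed as markers of this mesenchymal line. VIM (3384 and 2764 CPM in BCSC and non-BCSC) and CD44 (2618 and 1441 CPM) were abundant in both groups. AXL was at 304 and 165 CPM, and CAV1 was called higher in BCSC (565 and 229 CPM). S100A4 was low and overlapped (6.13 and 10.5 CPM). The 6 luminal genes fixed as low summed to 65.6 to 80.4 CPM in BCSC and 104 to 139 CPM in non-BCSC. PGR and KRT18 among them were called lower in BCSC, and the others were not called. Over 391 olfactory receptor genes the libraries held 0.865 to 2.69 counts per kb of exon in BCSC and 7.03 to 12.9 in non-BCSC. The summed level of 7 markers of blood, liver and connective tissue cells was 8.59 to 12 CPM in BCSC and 40.7 to 63.4 CPM in non-BCSC, none of the 7 was at 0 in every library, and PTPRC, a leukocyte marker, accounted for 18.7 CPM of the non-BCSC mean. The members did not all move one way. PTPRC, HBB, ALB and DCN were called lower in BCSC, COL1A1 overlapped between groups, CD3E was too low to test, and CD68, a macrophage marker, was called higher (2.34, 3.23 and 1.56 CPM in BCSC and at most 0.0874 CPM in non-BCSC, edgeR adjusted p = 0.0118). All 7 lay within 1.75 times the density of the olfactory receptor genes in non-BCSC. This level is given beside each group of low members as the olfactory receptor density, and its part in the results was not tested beyond the subtraction described there. Fewer cells of a type and less RNA per cell cannot be told apart in these bulk libraries.

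The summed level of the snoRNA hosts was higher in BCSC. Their summed level was 1448, 1417 and 1429 CPM in the BCSC libraries and 1149, 1146 and 1134 CPM in the non-BCSC libraries. The groups did not overlap, and the sums gave a ratio of 1.25 (1431 ± 15.6 against 1143 ± 8.12 CPM, mean ± SD, n = 3 each). SNHG14 alone made up 34.5% of the sum over both groups. Without it the sums were 1063, 1028 and 986 CPM in BCSC and 703, 625 and 656 CPM in non-BCSC, a ratio of 1.55. The 13 members with a mean under 100 counts overlapped between groups, at 34.5, 23.5 and 34.7 CPM in BCSC and 27.4, 10.3 and 33.3 CPM in non-BCSC.

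The microRNA hosts as a class were lower in BCSC, by less. Their summed level was 1010, 981 and 1124 CPM in BCSC and 1141, 1172 and 1256 CPM in non-BCSC, a ratio of 0.873. The groups did not overlap, though the highest BCSC value was close to the lowest non-BCSC value. MIR99AHG, which made up 30.3% of the sum, was lower in BCSC. So was the sum of the low members given below, while MIR4435-2HG was higher. Without it the groups overlapped (756 ± 36.8 against 796 ± 28.6 CPM, ratio 0.951). Once the olfactory receptor density was subtracted from every gene the ratio was 1.04, on the other side of equality. The 58 members with a mean under 100 counts summed to 28.8, 29.4 and 51.4 CPM in BCSC and 89.8, 113 and 143 CPM in non-BCSC, a ratio of 0.317.

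Within a library the SNHG sum was 1.43, 1.44 and 1.27 times the microRNA host sum in BCSC and 1.01, 0.978 and 0.903 times in non-BCSC. All 3 BCSC ratios were above all 3 non-BCSC ratios (1.38 ± 0.0973 against 0.963 ± 0.0539). This ratio does not depend on how the libraries are scaled. With 3 libraries against 3, an exact two-sided permutation test cannot go below p = 0.10, so the sums are given without a test.

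**Figure D1:**
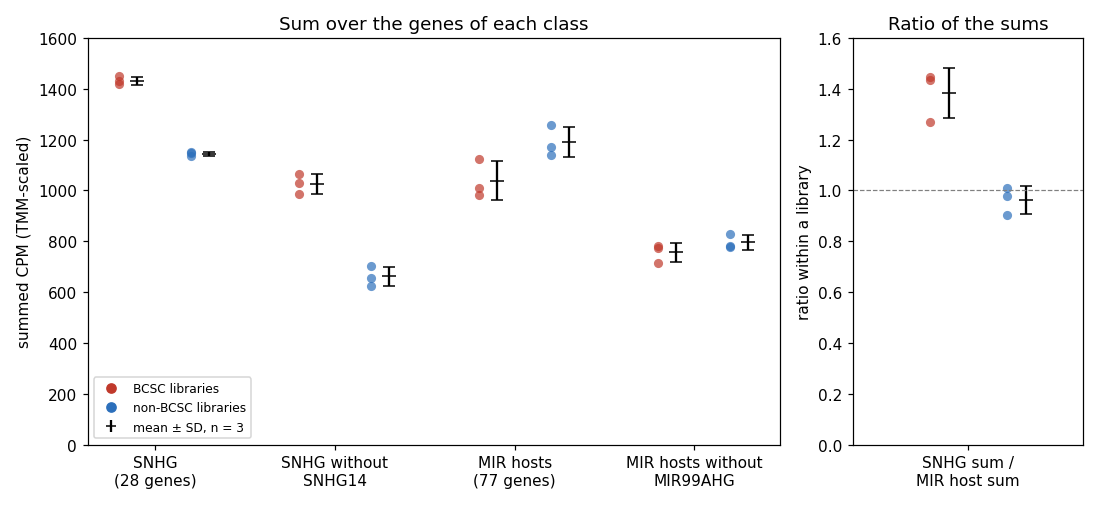
Summed CPM of the 28 SNHG and the 77 microRNA host genes in each library, with and without the most abundant member of each class (left), and the ratio of the 2 sums within a library (right). Points are libraries and bars are mean ± SD (n = 3). The SNHG sums of BCSC lie above those of non-BCSC (1417 to 1448 against 1134 to 1149), and the microRNA host sums overlap once MIR99AHG is left out.

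At gene level 23 of the 28 SNHG genes passed the filter on low counts. A gene was called changed at an edgeR adjusted p under 0.05 and a fold above 2. By this rule 4 SNHG genes were higher in BCSC (SNHG3, SNHG32, SNHG12 and SNHG7) and 1 was lower (SNHG27), where 8.74% of all 20720 genes tested were called higher and 11.0% lower. Among the 4431 lncRNA genes tested, 1.99% were called higher and 20.5% lower. At any fold 8 SNHG genes were higher and 1 was lower, against 15.0% and 14.2% of all genes and 2.60% and 20.9% of lncRNA genes. The median log2 fold change of the 23 was 0.66, beside -0.05 over all genes and -1.25 over lncRNA genes. All 3 BCSC values lay above all 3 non-BCSC values for 11 SNHG genes (24.1% of all genes and 7.79% of lncRNA genes) and below for 3 (27.8% and 43.6%). Low lncRNA genes are common among those lower in BCSC. Of the 529 lncRNA genes averaging 100 counts or more, 9.45% were called higher and 12.9% lower, and of the 15 SNHG genes at that level 3 were called higher and 0 lower, with 7 higher and 0 lower at any fold. At an unadjusted p under 0.05 with a fold above 2 they were 4 and 0. By that rule 57 and 80 of the 529 lncRNA genes were, and 1764 and 435 of all 10539 genes of that level. Over all genes of that level 15.0% were called higher and 3.84% lower, or 27.3% and 10.1% at any fold, and over lncRNA genes of that level 14.6% and 16.3% at any fold.

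SNHG3, host of the H/ACA snoRNA SNORA73B, had the smallest p among the SNHG genes. Its level was 153, 145 and 129 CPM in BCSC and 47.9, 61.2 and 41.9 CPM in non-BCSC. Every BCSC value was more than 2 times every non-BCSC value, and the log2 fold change was 1.5 ± 0.16 (SE, edgeR adjusted p = 0.000511). It stayed called with any 1 library left out (adjusted p 0.00144 to 0.00386) and with GC content and length corrected (1.56) or the olfactory receptor density subtracted (1.19). The gene lies at chr1:28832492-28837404 on the plus strand. That is inside the span of RCC1, the regulator of chromosome condensation, on the same strand (chr1:28832455-28865812). Of the exonic bases of SNHG3 5.92% are shared with RCC1, which was also higher (log2 fold change 1.22 ± 0.19, edgeR adjusted p = 0.00288). Whether reads of RCC1 add to the SNHG3 counts was not tested.

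SNHG32, at chr6:31802385-31807543 and host of SNORD48 and SNORD52, was at 28.6, 23.2 and 19.3 CPM in BCSC and 8.98, 8.92 and 3.99 CPM in non-BCSC. The groups were well apart, with a log2 fold change of 1.70 ± 0.35 (edgeR adjusted p = 0.00874) that held with each library left out. With the olfactory receptor density subtracted the value was 1.64 and the adjusted p 0.066. Of its exonic bases 23.2% are shared on the same strand with another annotated lncRNA.

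SNHG12 stood at 27.6, 30.2 and 31.6 CPM in BCSC and at 17.6, 10.9 and 15.1 CPM in non-BCSC. It hosts SNORD99 and lies at chr1:28905050-28909644. All BCSC values were above all non-BCSC values, and the log2 fold change was 1.03 ± 0.24 (edgeR adjusted p = 0.0131). The fold is close to the threshold. It fell to 0.61 (adjusted p = 0.0603) after correction for GC content and length, and without BCSC replicate 2 the adjusted p was 0.0521. The fold was under 2, with an adjusted p still under 0.05, with RLE scaling (0.94), DESeq2 (0.94), at least 10 counts per library (0.87), thinning (0.99), without BCSC replicate 3 (0.997) and without non-BCSC replicate 2 (0.91), so the call stood in 3 of 6 fits with a library left out.

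SNHG7 had the fewest counts of the SNHG genes called higher (mean 65.8 per library). Its level was 6.92, 4.78 and 7.24 CPM in BCSC and 1.63, 0.787 and 2.75 CPM in non-BCSC, without overlap. The log2 fold change was 1.87 ± 0.61 (edgeR adjusted p = 0.0439). Leaving out any library but non-BCSC replicate 3 raised the adjusted p above 0.05, up to 0.128, and correction for GC content brought it to 0.99 (adjusted p = 0.226). In non-BCSC its counts per kb were 0.419 times the olfactory receptor density.

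A further 4 SNHG genes rose by less than 2-fold. SNHG29, an abundant host on chromosome 17, was at 210.4, 202 and 151 CPM in BCSC and 136, 108 and 113 CPM in non-BCSC. The lowest BCSC value was above the highest non-BCSC value, with a log2 fold change of 0.66 ± 0.15 (edgeR adjusted p = 0.0124). SNHG16, which holds SNORD1B, was at 184, 182 and 202 CPM in BCSC and 124, 124 and 106 CPM in non-BCSC. This was the tightest of the group (0.68 ± 0.11, adjusted p = 0.00302) and remained under 0.05 with any 1 library left out. With the olfactory receptor density subtracted SNHG29 was at 0.34 (adjusted p = 0.12) and SNHG16 at 0.34 (adjusted p = 0.0503), and without non-BCSC replicate 2 the adjusted p of SNHG29 was 0.0503.

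SNHG17, host of the SNORA71 snoRNAs, was at 71.5, 55.4 and 49.8 CPM in BCSC and 35, 23.8 and 30.8 CPM in non-BCSC. Its log2 fold change of 0.98 ± 0.21 (edgeR adjusted p = 0.00896) sat just under the fold threshold, passed it in 4 of 6 fits with a library left out, and fell to 0.34 (adjusted p = 0.104) with GC content corrected. SNHG4, host of SNORA74A, was at 82.5, 86.7 and 83.2 CPM in BCSC and 54.3, 36.5 and 63.4 CPM in non-BCSC. The BCSC values were close together and above the others (0.71 ± 0.19, adjusted p = 0.0227). Without BCSC replicate 1 or 2 the adjusted p was up to 0.0659, and with the olfactory receptor density subtracted the value was 0.40 (adjusted p = 0.24). SNHG4 shares 14% of its exonic bases on the same strand with MATR3, a nuclear matrix protein gene.

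SNHG14, by far the most abundant SNHG gene by CPM, did not pass the test. It is the long host of the SNORD115 and SNORD116 clusters of the imprinted Prader-Willi region, at chr15:25223730-25665483. Its level was 385, 389.7 and 443 CPM in BCSC and 447, 521 and 477 CPM in non-BCSC. The BCSC values lay just below the others, with a log2 fold change of -0.25 ± 0.10 (edgeR adjusted p = 0.0935). It passed as lower with RLE scaling (-0.34, adjusted p = 0.0332), DESeq2 (-0.34, adjusted p = 0.00634) and at least 10 counts per library (-0.41, adjusted p = 0.00902), and as higher with GC content and length corrected (0.36, adjusted p = 0.0402). Per kb of exon it was one of the lower SNHG genes, at 3.31 CPM per kb in BCSC and 3.93 in non-BCSC over 122609 annotated exonic bases.

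The other abundant SNHG genes overlapped between groups. SNHG1, a host of box C/D snoRNAs, had 116, 127 and 127 CPM in BCSC and 126, 94.2 and 91.9 CPM in non-BCSC (log2 fold change 0.25 ± 0.14, edgeR adjusted p = 0.212). One non-BCSC library, replicate 1, was at the level of BCSC, and without it the value was 0.47 (adjusted p = 0.0315). With GC content and length corrected it was 0.49 (adjusted p = 0.0383). SNHG5 had 47.7, 44.7 and 53.6 CPM in BCSC and 35.7, 61.6 and 64.6 CPM in non-BCSC (-0.15 ± 0.22, adjusted p = 0.642). The level of SNHG6 was 43.4, 41.0 and 47.7 CPM in BCSC and 36.7, 56.0 and 37.8 CPM in non-BCSC (0.02 ± 0.20, adjusted p = 0.958). For both genes the non-BCSC values spread to either side of BCSC. SNHG6 shares 58.9% of its exonic bases on the opposite strand with MCMDC2, and whether counting used strand is not given in the sources used here.

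Below 40 CPM, SNHG8 had 29.2, 31.9 and 23.3 CPM in BCSC and 24.6, 14.7 and 33.8 CPM in non-BCSC (log2 fold change 0.21 ± 0.30). SNHG15 had 15.2, 12.1 and 9.10 CPM in BCSC and 8.0, 4.55 and 5.51 CPM in non-BCSC, without overlap but with an edgeR adjusted p of 0.0671 for a log2 fold change of 1.01 ± 0.37, and 0.0415 without non-BCSC replicate 1. SNHG10 likewise did not overlap (10.3 ± 1.11 against 7.22 ± 0.861 CPM) and did not pass (0.51 ± 0.32, adjusted p = 0.25). SNHG20 overlapped (11.4 ± 3.04 against 7.74 ± 4.39 CPM, 0.56 ± 0.47).

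SNHG27 was the SNHG gene called lower. It had 4, 12 and 2 counts in BCSC, against 43, 35 and 61 in non-BCSC, or 0.195, 0.775 and 0.120 CPM against 3.51, 3.06 and 5.79 CPM (log2 fold change -3.49 ± 0.94, edgeR adjusted p = 0.0225). The groups were far apart at a level of few counts. Per kb of exon the gene stood at 1.21 times the olfactory receptor density in non-BCSC and 1.47 times in BCSC, and with that density subtracted it was not called. Without BCSC replicate 1, non-BCSC replicate 2 or non-BCSC replicate 3 it was not called either (adjusted p up to 0.0751). Of the remaining SNHG genes 6 were tested at means of 16 to 98.3 counts and none was called. The other 5 were too low to test, with means of at most 10.3 counts.

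Of the 77 microRNA host genes 44 were tested and 7 had 0 counts in every library. There 3 were called higher (MIR23AHG, MIRLET7BHG and MIR22HG) and 10 lower, where 8.74% and 11.0% of all genes and 1.99% and 20.5% of lncRNA genes were. At any fold 4 were higher and 11 lower, and the median log2 fold change was -0.70. The direction went with the level. With a mean of at least 100 counts, 19 were tested, 2 were called higher and 0 lower (2 and 1 at an unadjusted p under 0.05 with a fold above 2), with a median of -0.07. Under 100 counts 25 were tested, 1 was called higher and 10 lower, with a median of -2.74, where 0.974% and 21.6% of lncRNA genes and 2.29% and 18.5% of all genes of that level were called. Over these 25 genes the median density was 0.807 times that of the olfactory receptor genes in BCSC and 0.811 times in non-BCSC.

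**Figure D2:**
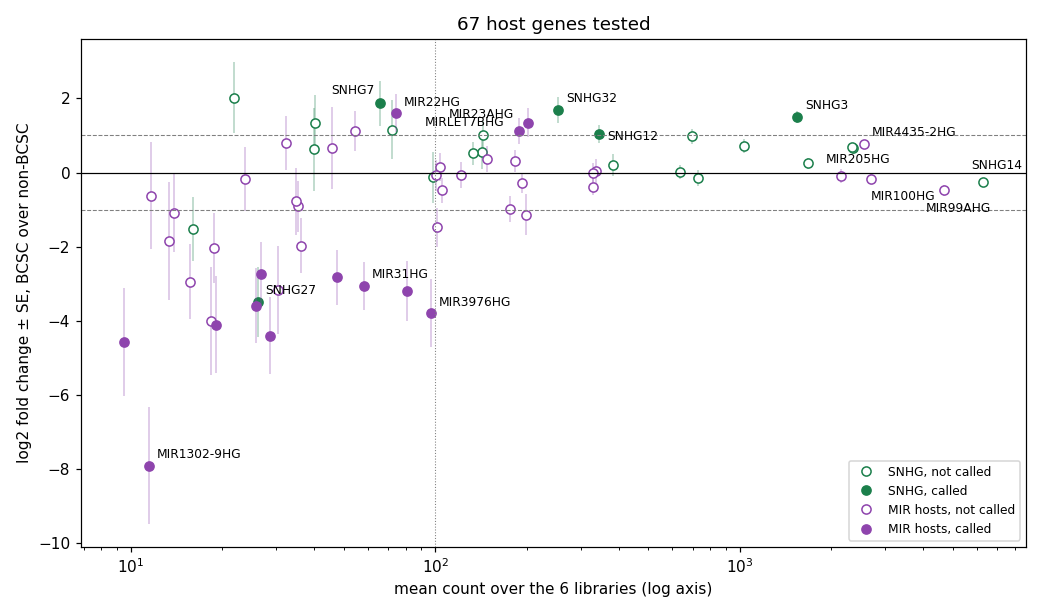
Log2 fold change (BCSC over non-BCSC, ± SE) against the mean count over the 6 libraries (log axis) for the 67 host genes tested. Filled points were called changed. Dashed lines mark a fold of 2 and the dotted line 100 counts, and all 11 members called lower lie to its left.

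MIR23AHG carries the precursors of miR-23a, miR-27a and miR-24, whose sequences are given above, at chr19:13934694-13953742. It stood at 26.9, 15.8 and 10.5 CPM in BCSC and at 8.89, 6.64 and 5.32 CPM in non-BCSC. BCSC values varied over 2-fold but all lay above non-BCSC, and the log2 fold change was 1.35 ± 0.40 (edgeR adjusted p = 0.0312). With GC content and length corrected it fell to 0.46 (adjusted p = 0.247). With the olfactory receptor density subtracted it stayed called, on 0 counts in every non-BCSC library. It was called when BCSC replicate 3 or non-BCSC replicate 1 was dropped and in none of the other 4 fits with a library left out (adjusted p up to 0.156). ZSWIM4 shares exonic bases with it on the opposite strand.

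MIRLET7BHG, host of let-7a and let-7b on chromosome 22, was at 22.3, 9.82 and 16.2 CPM in BCSC and 8.0, 6.73 and 7.41 CPM in non-BCSC. The BCSC libraries were uneven and all above non-BCSC (log2 fold change 1.12 ± 0.35, edgeR adjusted p = 0.039). At 63.4% GC it has the highest GC content of the named members, and with GC content corrected the value was -0.14 (adjusted p = 0.75). It was called without BCSC replicate 2, and without any other single library the adjusted p was up to 0.177. It did not pass with RLE scaling or with the olfactory receptor density subtracted, which left 53, 22 and 0 counts in non-BCSC.

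Of the other hosts of let-7 microRNAs, MIRLET7A1HG, which holds let-7a, let-7f and let-7d, was at 16.9, 20.3 and 24.2 CPM in BCSC and 30.7, 23.7 and 25.7 CPM in non-BCSC (log2 fold change -0.39 ± 0.23, edgeR adjusted p = 0.22). MIRLET7IHG was at 13.9, 9.95 and 12.8 CPM in BCSC and 12.6, 14.8 and 17.0 CPM in non-BCSC (-0.28 ± 0.27, adjusted p = 0.471). Both overlapped between groups and neither passed the test. With GC content and length corrected, none of the 5 let-7 hosts passed, with log2 fold changes of -0.14 (MIRLET7BHG), -0.25 (MIRLET7A1HG), 0.0557 (MIRLET7IHG), 0.17 (MIR99AHG) and 0.26 (MIR100HG). Differences between hosts were not tested.

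MIR99AHG, host of let-7c, miR-99a and miR-125b on chromosome 21, was the most abundant microRNA host and was lower in BCSC by less than 2-fold. Its level was 236, 267 and 343 CPM in BCSC and 364, 391 and 427 CPM in non-BCSC. The highest BCSC library came close to the lowest non-BCSC library, and the log2 fold change was -0.48 ± 0.14 (edgeR adjusted p = 0.0307). Of the fits with a library left out only that without BCSC replicate 3 kept it under 0.05 (adjusted p up to 0.134), and after correction for GC content and length the value was 0.17 (adjusted p = 0.238). Its exons are 38.0% GC.

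MIR100HG, its counterpart on chromosome 11 with let-7a, miR-100 and miR-125b, was at 155, 179 and 202 CPM in BCSC and 184, 219 and 202 CPM in non-BCSC. The groups overlapped (log2 fold change -0.17 ± 0.12, edgeR adjusted p = 0.312).

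MIR4435-2HG was the microRNA host with the smallest p. This long gene at chr2:111763592-112280953 was at 219.5, 215 and 196 CPM in BCSC and 137, 118 and 115 CPM in non-BCSC. The groups were well apart, with a log2 fold change of 0.77 ± 0.11 (edgeR adjusted p = 0.00188) that stayed under 0.05 in all 14 alternatives, between 0.61 and 0.97. It missed the fold of 2 in each.

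MIR205HG, host of miR-205, was the densest member per kb of exon, at 40.1 CPM per kb in BCSC and 43.1 in non-BCSC. Its level was 173, 121 and 132 CPM in BCSC and 190, 149.6 and 118 CPM in non-BCSC, which overlapped fully (log2 fold change -0.10 ± 0.19, edgeR adjusted p = 0.705). Next per kb in BCSC were SNHG3 (34.8 and 12.3), SNHG16 (32.8 and 20.4) and SNHG1 (31.1 and 26.2), in CPM per kb of exon for BCSC and non-BCSC. In non-BCSC SNHG1 and SNHG16 came next, followed by SNHG6 (17.2), SNHG29 (13.3) and SNHG3.

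MIR22HG, named after its values were seen, was called higher on few counts. It had 151, 64 and 153 counts in BCSC, against 34, 21 and 23 in non-BCSC, or 7.36, 4.13 and 9.16 CPM against 2.77, 1.84 and 2.18 CPM. The groups did not overlap, and the log2 fold change was 1.6 ± 0.52 (edgeR adjusted p = 0.0439). It kept its size with GC content corrected (1.55, adjusted p = 0.0393). It did not pass with RLE scaling, no filter, thinning or the olfactory receptor density subtracted, which left 12, 0 and 0 counts in non-BCSC. With any 1 library left out the adjusted p was 0.0501 to 0.136.

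The other hosts with a mean of at least 100 counts did not pass. MIR137HG (23.8 ± 4.14 CPM in BCSC against 23 ± 10.9 in non-BCSC) and MIR181A1HG (23 ± 6.18 against 23.1 ± 4.06) were level, with log2 fold changes of 0.05 ± 0.32 and -0.01 ± 0.26. MIR29B2CHG, host of miR-29b and miR-29c, had 13.5 ± 3.11 against 10.9 ± 1.81 CPM (0.30 ± 0.30), and MIR1915HG had 11.1 ± 3.12 against 8.66 ± 1.55 CPM (0.36 ± 0.35). MIR4500HG had 6.53, 9.24 and 12.9 CPM in BCSC and 6.85, 17.1 and 39.3 CPM in non-BCSC, so its log2 fold change of -1.14 ± 0.55 (edgeR adjusted p = 0.142) came with a wide spread in non-BCSC, and without non-BCSC replicate 1 it passed (adjusted p = 0.0383). MIR3681HG did not overlap (8.74 ± 2.23 against 17.2 ± 6.29 CPM) and had an adjusted p of 0.0602 for a log2 fold change of -0.98 ± 0.35, which had an adjusted p under 0.05 with RLE scaling (0.047), DESeq2 (0.0225), at least 10 counts per library (0.0186), thinning (0.0404) and a replicate block (0.0477). All but the last also passed the fold of 2. Hosts at this level beyond the 14 given were not printed, and the 19 ran from -1.48 to 1.35. Among those not printed MIR4458HG, named after its calls were seen, was not called in the main fit. It was called lower with RLE scaling, DESeq2, no filter, at least 10 counts, thinning, a replicate block and without non-BCSC replicate 1. With GC content corrected, the background removed or any other library left out it was not called.

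**Figure D3:**
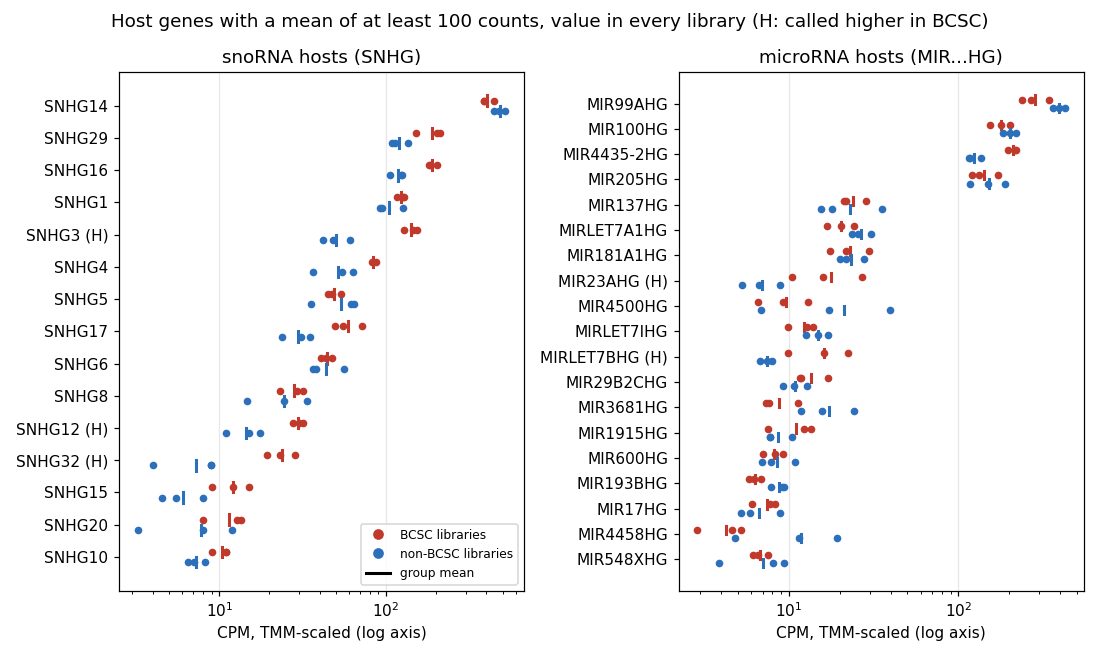
CPM (TMM-scaled, log axis) in each library for the 15 SNHG and 19 microRNA host genes averaging 100 counts or more. Points are libraries, vertical ticks are group means, and H marks genes called higher in BCSC. SNHG3 and SNHG32 show the widest gaps between groups, and MIR99AHG lies lower in BCSC.

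The 10 microRNA hosts called lower were MIR3976HG, MIR646HG, MIR31HG, MIR2052HG, MIR7515HG, MIR133A1HG, MIR924HG, MIR4300HG, MIR1302-9HG and MIR217HG, with means of 9.5 to 97.2 counts. These names, and the 3 described next, were chosen after the values were seen. MIR31HG, host of miR-31 on chromosome 9, had 7, 19 and 27 counts in BCSC, against 71, 111 and 115 in non-BCSC (1.06 ± 0.654 against 8.81 ± 2.68 CPM). The groups did not overlap, with a log2 fold change of -3.05 ± 0.65 (edgeR adjusted p = 0.0096) that passed with each library left out. MIR3976HG, the most abundant of the 10, had 21, 0 and 38 counts in BCSC, against 149, 164 and 211 in non-BCSC (-3.80 ± 0.92, adjusted p = 0.0152), and without BCSC replicate 1, non-BCSC replicate 2 or non-BCSC replicate 3 it was not called (adjusted p up to 0.0704). MIR1302-9HG had 0 counts in each BCSC library and 15, 20 and 34 in non-BCSC, at least 11.9-fold lower when the BCSC level is set to 3 counts per library.

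All 10 lay near the olfactory receptor density in non-BCSC, at 0.399 to 1.64 times its counts per kb. With that density subtracted, 0 of the 10 were called and 15 of the 44 tested microRNA hosts were at 0 in every non-BCSC library, beside 3 of the 23 tested SNHG genes. Over all genes the count of calls lower in BCSC went from 2287 to 666 with the same subtraction. A further 33 microRNA hosts were not tested, with means of at most 15.3 counts.

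**Figure D4:**
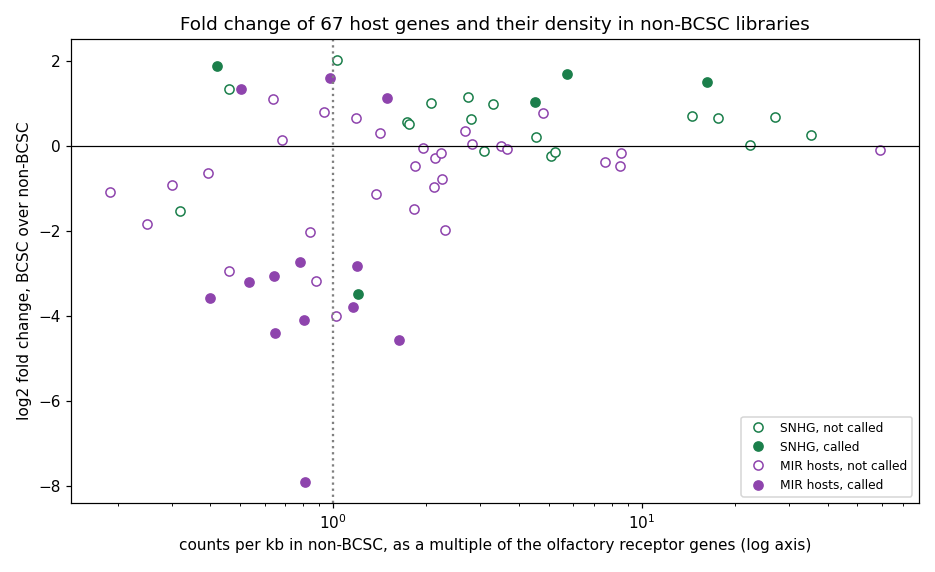
Log2 fold change of the 67 tested host genes against their counts per kb of exon in non-BCSC, as a multiple of the density over 391 olfactory receptor genes (log axis). Filled points were called changed. The members called lower sit at 0.399 to 1.64 times that density, and most SNHG genes lie above it.

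Fold changes of the host genes also went with base composition. Across the 23 tested SNHG genes Spearman's rho between log2 fold change and exonic GC content was 0.72, across the 44 microRNA hosts 0.36, and across 20442 genes with a value 0.54. Genes share libraries and are not independent, so these are descriptions only. With GC content and length corrected, 2 SNHG genes (SNHG3 and SNHG32) and 1 microRNA host (MIR22HG) were called higher.

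Single transcripts of the hosts were tested in the same way. Of 776 SNHG transcripts on file 154 were tested, and 1 was called higher and 0 lower, where 0.593% and 0.191% of the 46176 transcripts tested were. Of 1522 transcripts of microRNA hosts 170 were tested and 0 were called in either direction. At an unadjusted p under 0.05 with a fold above 2, 17 SNHG transcripts were higher and 7 lower, and 10 and 19 transcripts of microRNA hosts were. DESeq2 called 28 higher and 27 lower over both classes. The share over all transcripts is not given at either of these settings, so these counts are not read as a result. The transcript called was SNHG3-202, a form of SNHG3 with a retained intron (ENST00000437681.1). It had 2309, 1580 and 1581 counts in BCSC, against 335, 349 and 198 in non-BCSC (log2 fold change 2.09 ± 0.29, edgeR adjusted p = 0.0499), and it was not called with any 1 library left out. It held 72.5% of SNHG3 counts in BCSC and 50.6% in non-BCSC, while the spliced form SNHG3-201 had 640, 494 and 377 against 200, 312 and 192 counts (0.55 ± 0.40).

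None of the host transcripts lower in BCSC passed. The smallest p values among those with a mean of at least 50 counts belonged to SNHG29-220 (9, 0 and 0 counts in BCSC, against 423, 155 and 249 in non-BCSC, edgeR adjusted p = 0.126), SNHG1-236 (53, 17 and 11 against 101, 53 and 159 counts, adjusted p = 0.185) and MIR3976HG-222 (adjusted p = 0.252). For SNHG29-220 the groups were far apart in counts, while the gene as a whole rose.

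Among the 6 most abundant hosts the leading transcript was the same in both groups for 4. SNHG14-220 held 18.5% of the counts of SNHG14 in BCSC and 18.8% in non-BCSC, MIR99AHG-220 13.2% and 8.73%, MIR100HG-217 33.8% and 21.1%, and SNHG16-213 29.7% and 41.6%. For SNHG29 the leading form was SNHG29-238 in BCSC (25.2%) and SNHG29-220 in non-BCSC (19.6%), and for MIR4435-2HG it was MIR4435-2HG-275 (16.6%) and MIR4435-2HG-236 (13.6%). These shares were not tested. Of 2 hosts chosen after their values were seen, SNHG1 had 46.4% of its counts on SNHG1-249 in BCSC and 4.38% in non-BCSC (1329, 861 and 848 against 116, 13 and 43 counts, edgeR adjusted p = 0.0898), and MIR205HG had 88.8% and 93.7% on MIR205HG-205, a form with a retained intron. Transcript counts are estimates that divide reads among overlapping forms.

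**Figure D5:**
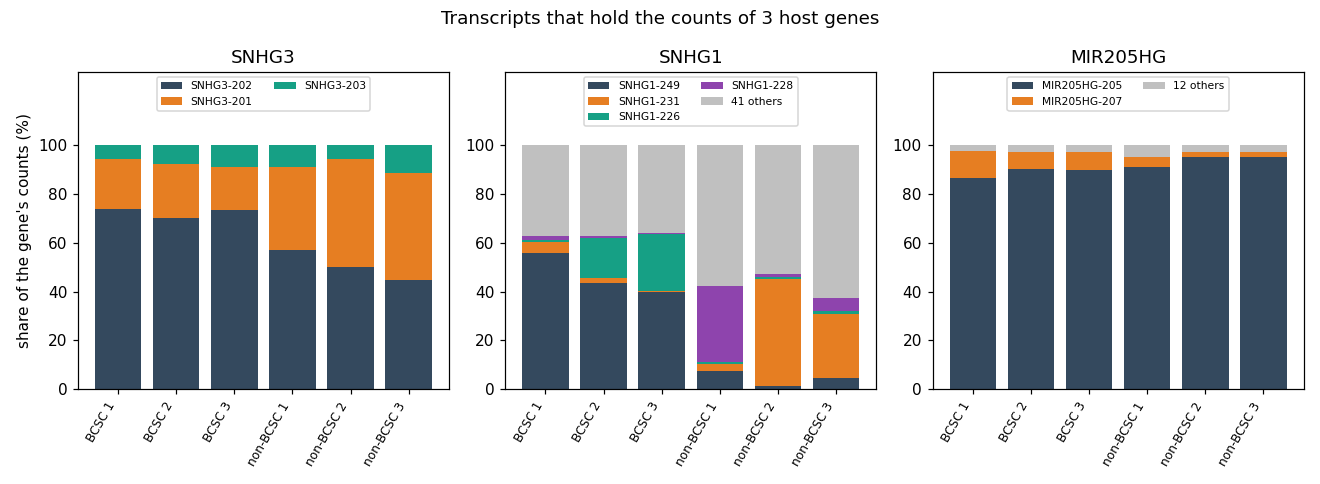
Share of each gene's counts (%) held by its leading transcripts in each library, for SNHG3, SNHG1 and MIR205HG. SNHG3-202 takes 72.5% of SNHG3 in BCSC and 50.6% in non-BCSC by group mean, SNHG1-249 takes 46.4% and 4.38%, and MIR205HG-205 takes most counts in all 6 libraries.

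Most small RNAs inside the hosts had few counts. Of 95 snoRNA genes within SNHG genes 33 had 0 counts in every library, 5 were tested and 0 were called. Most of the 95 lie in SNHG14. The annotation used places none inside SNHG1, SNHG5, SNHG6, SNHG8 or SNHG29. Of 86 microRNA genes within microRNA hosts 83 were on file, 39 had 0 counts, 2 were tested and 0 were called. At an unadjusted p under 0.05 with a fold above 2, 0 were higher and 1 lower, beside 2242 and 3547 of all 20720 genes. DESeq2 called 1 lower.

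SNORD108 in SNHG14 had 698, 440 and 327 counts in BCSC, against 289, 481 and 379 in non-BCSC, or 27.3 ± 7.29 against 33.9 ± 9.42 CPM. Its groups overlapped (log2 fold change -0.31 ± 0.28, edgeR adjusted p = 0.423). SNORA73B in SNHG3 had 20.5, 22.2 and 15 CPM in BCSC and 19, 13.7 and 11.6 CPM in non-BCSC (0.38 ± 0.28, adjusted p = 0.339), also with overlap. The host SNHG3 had a log2 fold change of 1.5, and the difference between host and snoRNA was not tested. MIR125B2 in MIR99AHG had 110, 289 and 87 against 184, 9 and 171 counts, and MIRLET7I 5, 35 and 56 against 15, 27 and 30. SNORD116-18 had 6, 13 and 5 against 147, 1 and 56 counts (-3.59 ± 1.27, adjusted p = 0.0594) and SNORD116-13 26, 12 and 7 against 17, 38 and 37 (-1.72 ± 0.86, adjusted p = 0.155). None of these passed the test. SNORD108, SNORD116-18, SNORD116-13 and MIR125B2 lie in an exon of a transcript of their host. Their counts therefore cannot be told apart from reads of the host RNA.

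Other genes of the same pathways were given by lists chosen together with the members. Fold changes went with GC content over all genes, and values of the listed genes with GC content corrected are not given here. Their counts stand beside 8.74% of all genes called higher and 11.0% lower, or 15.0% and 3.84% of genes averaging 100 counts or more, and their medians beside -0.05 for all genes and 0.24 for genes of that level. Of 6 other non-coding snoRNA hosts, among them GAS5 and ZFAS1, 0 were higher and 1 was lower: MEG8, at 1.12, 2.65 and 4.37 CPM in BCSC and 17.6, 21.9 and 42.6 CPM in non-BCSC, where its density was 1.15 times that of the olfactory receptor genes. Of 19 protein-coding snoRNA hosts 2 were higher and 0 lower. PRRC2A rose from 83.9, 55.8 and 51.4 CPM in non-BCSC to 311, 198 and 177 CPM in BCSC (log2 fold change 1.84 ± 0.25, edgeR adjusted p = 0.00135). RCC1, whose span holds SNHG3, was named above. At any fold 3 were higher and 2 lower, the latter being NCL (-0.58 ± 0.12, adjusted p = 0.00779) and TPT1 (-0.49 ± 0.12, adjusted p = 0.0141), named after their values were seen. The list's median log2 fold change was 0.16.

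Of 20 snoRNP proteins, which bind and mature snoRNAs, 2 were higher and 0 lower, with a median of -0.07. FBL, the methyltransferase of box C/D snoRNPs, was at 148, 108 and 82.6 CPM in BCSC and 56.7, 37.5 and 47.0 CPM in non-BCSC (log2 fold change 1.26 ± 0.23, edgeR adjusted p = 0.00484). SNU13, which binds the C/D fold, was at 65.9, 58.5 and 46.2 CPM in BCSC and 30.8, 18.4 and 26.4 CPM in non-BCSC (1.17 ± 0.23, adjusted p = 0.00664). At any fold 3 were higher and 2 lower. The latter, named after their values were seen, were NOP58, of the same C/D core (-0.56 ± 0.12, adjusted p = 0.0112), and NUFIP1, an assembly factor (-0.72 ± 0.22, adjusted p = 0.0373). GC content is 56.3% for FBL and 52.9% for SNU13, and 42.0% for NOP58 and 38.7% for NUFIP1.

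On the microRNA side, 16 of 17 protein-coding hosts were tested, and 1 was higher (CTDSP1, 2.03 ± 0.49) and 1 lower (SREBF1, -1.23 ± 0.30). Of 2 other non-coding hosts DLEU2, host of miR-15a and miR-16, was tested and overlapped between groups (-0.24 ± 0.16). Of 13 genes of microRNA biogenesis 2 were higher and 0 lower. DGCR8, the partner of DROSHA, was at 56.0, 39.3 and 39.0 CPM in BCSC and 27.6, 21.0 and 17.8 CPM in non-BCSC (log2 fold change 1.02 ± 0.23, edgeR adjusted p = 0.0129). TARBP2, the partner of DICER1, was at 9.75, 5.10 and 4.85 CPM in BCSC and at most 0.76 CPM in non-BCSC (adjusted p = 0.014). In non-BCSC TARBP2 had 0, 3 and 8 counts, at 0.0792 times the olfactory receptor density, and CTDSP1 was at 1.32 times. Their GC contents are 58.9% and 61.1%, and their values with GC content corrected are not given here. The list's median log2 fold change was 0.11.

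Of 10 genes of nonsense-mediated decay, the pathway that degrades spliced snoRNA host exons, 2 were higher and 0 lower, with a median of 0.52. UPF1, its central helicase, was at 87.9, 54.0 and 44 CPM in BCSC and 21.1, 17.5 and 19.8 CPM in non-BCSC (log2 fold change 1.67 ± 0.26, edgeR adjusted p = 0.00255). SMG5 was at 135, 85.4 and 72.2 CPM in BCSC and 33.0, 30.6 and 20.4 CPM in non-BCSC (1.80 ± 0.26, adjusted p = 0.00208). Both were without overlap, at 2.84 and 7.24 times the olfactory receptor density in non-BCSC.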

How the data were processed

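LncRNA sequencing libraries were 3 per group. Per the labels, strand was marked with dUTP. Whether counting used strand is not given in the sources used here. The submitters' processing notes name HISAT2, featureCounts, DESeq2 and hg38, while the study's RNA-seq methods name hg19. What the authors deposited is a table of estimated counts (expected counts) per transcript, in whole numbers, not normalized. Of 252618 transcripts on file, 249787 matched the GENCODE annotation on GRCh37 by identifier, 2827 (0.273% of counts) did not and were kept as features of their own, and 4 with assembler-made names were left out.

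Counts were summed per gene and tested with the quasi-likelihood method of edgeR 4.0.16 under R 4.3.3 (TMM scaling, filterByExpr, robust dispersion, group as the only term), BH-adjusted over all features, two-sided. Called means adjusted p under 0.05 and a fold above 2. The common biological coefficient of variation was 0.465 for 20720 genes and 1.02 for 46176 transcripts. No set test was run. Host members and gene lists were chosen with earlier results of these data known. Members with a mean of at least 100 counts, or called with a mean of at least 20, were given library by library, at most 22 SNHG and 14 microRNA host genes. Transcripts were named where called, otherwise up to 3 per direction with the smallest p and a mean of at least 50 counts, and small RNAs at a mean of at least 20 counts. Of each list, up to 3 called genes were named.

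Positions of genes came from GENCODE on GRCh37, and microRNA and start sequences from RefSeq (GRCh38.p14). Of 86 microRNA hairpins 81 matched RefSeq. MicroRNAs were placed in hosts by RefSeq spans. The density per kb over 391 olfactory receptor genes, times exonic length, served as the background that one alternative subtracted. Further alternatives were RLE scaling, DESeq2 1.42.0, no filter, 10 or more counts per library throughout, a block on replicate number, leaving out each library in turn, no minimum fold, an unadjusted p, loess correction (span 0.3) for GC content and length, and thinning to the smallest library. The test was first tested on simulated data. At an adjusted p under 0.05 it recovered 52 of 184 genes changed 2-fold, 93 of 185 changed 4-fold and 122 of 183 changed 8-fold. A gene that did not pass may therefore still differ. Replicate libraries were further apart than counting alone gives (chi-square per degree of freedom 14.9 to 39.9), so none was counted as a duplicate.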

Additional observations from a re-analysis of the deposited data

How the results depend on the processing

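SNHG calls higher in BCSC numbered 4 and became 2 with RLE scaling, 2 with at least 10 counts in every library, 2 with GC content and length corrected, 8 with no minimum fold and 2 to 6 with a library left out. The 1 call lower became 0 with the background removed and 0 to 1 with a library left out. MicroRNA host calls higher numbered 3 and became 1 with RLE scaling, 1 with GC content and length corrected and 0 to 1 with a library left out. Those lower numbered 10 and became 16 with DESeq2, 3 with at least 10 counts in every library (0 of them among the 10), 0 with the background removed and 2 to 12 with a library left out. Over all genes, 1811 higher became 764 with GC content and length corrected, 3111 with no minimum fold and 934 to 2223 with a library left out, and 2287 lower became 3518 with DESeq2, 1209 with at least 10 counts, 666 with the background removed, 3547 at an unadjusted p and 1054 to 2973 with a library left out. Small RNA calls were 0 in each direction and became 1 higher and 1 lower with no filter, 1 lower with DESeq2, 1 lower at an unadjusted p and 0 to 1 in each direction with a library left out. Transcript calls of 1 higher and 0 lower became 28 and 27 with DESeq2, and the higher call was 0 with each library left out. The SNHG sum ratio of 1.25 was 1.20 on all counts, 1.18 with RLE scaling, 1.55 without SNHG14 and 1.35 with the background removed. The microRNA host ratio of 0.873 was 0.951 without MIR99AHG and turned to 1.04 with the background removed. The causes of these changes were not tested, apart from the fewer genes or libraries that some alternatives use.

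Whether replicate numbers pair the libraries was not settled. Same-number correlations of deviations were 0.174, 0.0173 and 0.202, and each non-BCSC library correlated best with the BCSC library of its number. BCSC replicate 2, in turn, correlated best with non-BCSC replicate 1 (0.041). The main fit used no pairing. With a replicate block 5 SNHG genes were higher and 1 lower, 3 microRNA hosts higher and 12 lower, 1980 genes higher and 2260 lower, and 0 host transcripts were called in either direction.

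Over the 35 named members and 481 values under the alternatives, 384 kept their direction and side of the threshold, 50 lost and 14 gained an adjusted p under 0.05, and 33 changed sign. The sign changed with GC content and length corrected for SNHG14 (0.36), SNHG5 (0.0746), MIR99AHG (0.17), MIR100HG (0.26), MIR181A1HG (0.46), MIRLET7IHG (0.0557), MIRLET7BHG (-0.14) and MIR1915HG (-0.23). With the background removed it changed for SNHG1 (-0.11), SNHG6 (-0.32), MIR181A1HG (0.0651) and MIRLET7IHG (0.22). SNHG6 also changed with RLE scaling (-0.0739), DESeq2 (-0.0739) and at least 10 counts (-0.15), MIR137HG with RLE scaling (-0.0483), DESeq2 (-0.0485) and at least 10 counts (-0.12), and MIR181A1HG with no filter (0.0736). With a library left out SNHG5 ran from -0.32 to 0.0233, SNHG6 from -0.0524 to 0.29, SNHG8 from -0.00683 to 0.54, MIR205HG from -0.27 to 0.14, MIR137HG from -0.12 to 0.52 and MIR181A1HG from -0.23 to 0.17. Of these MIRLET7BHG and MIR99AHG passed the test as reported.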

Other observations

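Symbols that follow the microRNA host pattern but lie outside the autosomal lncRNA class were left out of the comparisons. Among them MIR222HG, the X-linked host of miR-221 and miR-222, was at 52.5, 52.4 and 74.0 CPM in the BCSC libraries and 38.2, 35.3 and 33.1 CPM in the non-BCSC libraries. The groups did not overlap (59.6 ± 12.4 against 35.6 ± 2.53 CPM, n = 3 each), and the fitted log2 difference came to 0.75 ± 0.18 (SE; edgeR adjusted p = 0.0152). MIR503HG, also X-linked, was at 2.39, 2.0 and 2.45 CPM in BCSC and 0.979, 0.699 and 0 CPM in non-BCSC, without overlap but with an adjusted p of 0.213. MIRLET7DHG, of another annotated class, had 0 counts in all 6 libraries.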
